A study of Homo sapiens with 45 samples.

Results

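The genes described here are 41 genes of S phase and DNA replication, taken by a list of names that rests on what their products do; the list uses no measured value, although it was drawn up with earlier results of these data known. They are 41 of 41582 genes, and all 41 passed the filter on low counts in every fit. RNA was sequenced from 13 established cell lines, 3 libraries each: 7 Ewing sarcoma lines (SKES1, TC71, RDES, A673, MHHES1, EW24 and EW3) and 6 osteosarcoma lines (U2OS, SAOS2, MG63, G292, KHOS and HOS-MNNG). Ewing sarcoma is a bone and soft tissue tumour that carries a gene fusion joining EWSR1 to an ETS factor, and osteosarcoma is a bone tumour whose cells make osteoid. A further 6 libraries came from A673 cells that carry sh908, a hairpin directed at the potassium channel gene KCNN1 and switched on by doxycycline: 3 libraries had no doxycycline (uninduced) and 3 had it (induced). All 6 of those libraries carry the hairpin construct. The labels used here give no dose or duration for doxycycline, and they do not say whether the 3 libraries of a group came from separate cultures, so p-values between libraries measure only the spread between these libraries, which may be technical. HOS-MNNG and KHOS both derive from the HOS line, so they are not independent tumours.

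During G1 the origin loader CDC6 and its partners place the MCM helicase on DNA, and geminin (GMNN) later blocks reloading. At the start of S phase CDC45 and the GINS complex join the MCM ring, the helicase opens the fork, and primase, the polymerases, the sliding clamp PCNA and its loader copy both strands while new histones are delivered. E2F transcription factors switch on most of these genes as cells enter S phase, which is why their RNA is widely used to mark dividing cells. In a bulk library, fewer cells in S phase and less of this RNA per cell cannot be told apart.

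The libraries held 15974173 to 51413254 estimated counts. Levels are given as TPM, a relative transcript abundance that scales counts by transcript length and library total, and a gene's value is the sum over its transcripts. The Ewing sarcoma markers NKX2-2, ITM2A and PRKCB lay at 17.9 to 139, 136 to 930 and 55.3 to 233 TPM in the Ewing lines and at no more than 5.55, 0.483 and 0.132 TPM in the osteosarcoma lines. CD99 (290 to 1701 against 116 to 944 TPM) and FLI1 (2.08 to 44.6 against 0.020 to 27.7 TPM) overlapped between the types. ERG, taken as the alternative to FLI1, had a median of 0.0044 TPM and a maximum of 34.8 TPM in the Ewing lines. In the osteosarcoma lines ERG ranged from 0.154 to 4.84 TPM. In the osteosarcoma lines, COL1A1 ranged from 72.4 to 3192 TPM and SPARC from 163 to 1335 TPM, and in the Ewing lines they reached 179.7 and 618 TPM. RUNX2 and ALPL went as low as 0.390 and 0.122 TPM in an osteosarcoma line, and the median of ALPL was 36.1 TPM in the Ewing lines against 4.37 TPM. The osteosarcoma markers thus did not separate the types line by line. PTPRC of leukocytes and PECAM1 of endothelium stayed at or below 1.23 and 1.41 TPM in all lines, and EPCAM of epithelium at or below 27.5 TPM. In the sh908 libraries KCNN1 stood at 37.8, 35.3 and 17.99 TPM in uninduced replicates 1, 2 and 3 and at 10.2, 13.7 and 7.75 TPM in induced replicates 1, 2 and 3. Every induced library was below every uninduced one (log2 difference −1.53, SE 0.52), although the adjusted p over all genes was 1.0 by edgeR's quasi-likelihood test without the replicate number as a block and 0.0013 with it.

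Some libraries stood apart in the S phase genes themselves. EW3 replicate 1 lay below its line's mean in 38 of 41 members, TC71 replicate 3 lay above its line's mean in 4 members and G292 replicate 1 in 0. Their median members lay 0.42, 0.36 and 0.25 below the line's mean. KHOS replicate 3 (above in 1 member), A673 replicate 1 (41) and SKES1 replicate 3 (39) were as one-sided by count. Their median members differed less from the line's mean, by −0.08, 0.10 and 0.11. Among the sh908 libraries, replicate 3 of both groups departed from replicates 1 and 2. The medians of EW3, TC71 and G292 are given below with those replicate numbers left out as well.

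Between the tumour types the S phase genes leaned towards the Ewing lines, with few single calls. The libraries of each line were summed, and 7 Ewing lines were compared with 6 osteosarcoma lines by edgeR's quasi-likelihood test, with adjustment over 22000 genes and a threshold of 0.05. MCM6, RFC2, RPA2, BLM and CASP8AP2 were called higher in the Ewing lines and 0 members were called lower, where 5.96% of all genes tested were called higher and 8.4% lower. The fitted log2 difference was above 0 in 37 of 41 members and in 46.6% of all genes tested, and its median was 0.37 over the members and −0.06 over all genes tested. At an unadjusted p under 0.05 stood 16 members (39.02%) and 29.6% of all genes tested. The 7 Ewing line means all lay above the 6 osteosarcoma line means for MCM6, RFC2 and BLM, and 3.19% of all genes tested had that separation. DESeq2 on the same line sums called 14 members higher, where it called 10.9% of all genes higher. Leaving out 1 line at a time gave between 3 members (without KHOS, 4.9% of all genes) and 13 (without EW3, 5.15%) called higher. Leaving out replicate 1, 2 or 3 of every line gave 7, 6 and 6, against 5.97%, 5.83% and 5.87% of all genes.

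**Figure D1:**
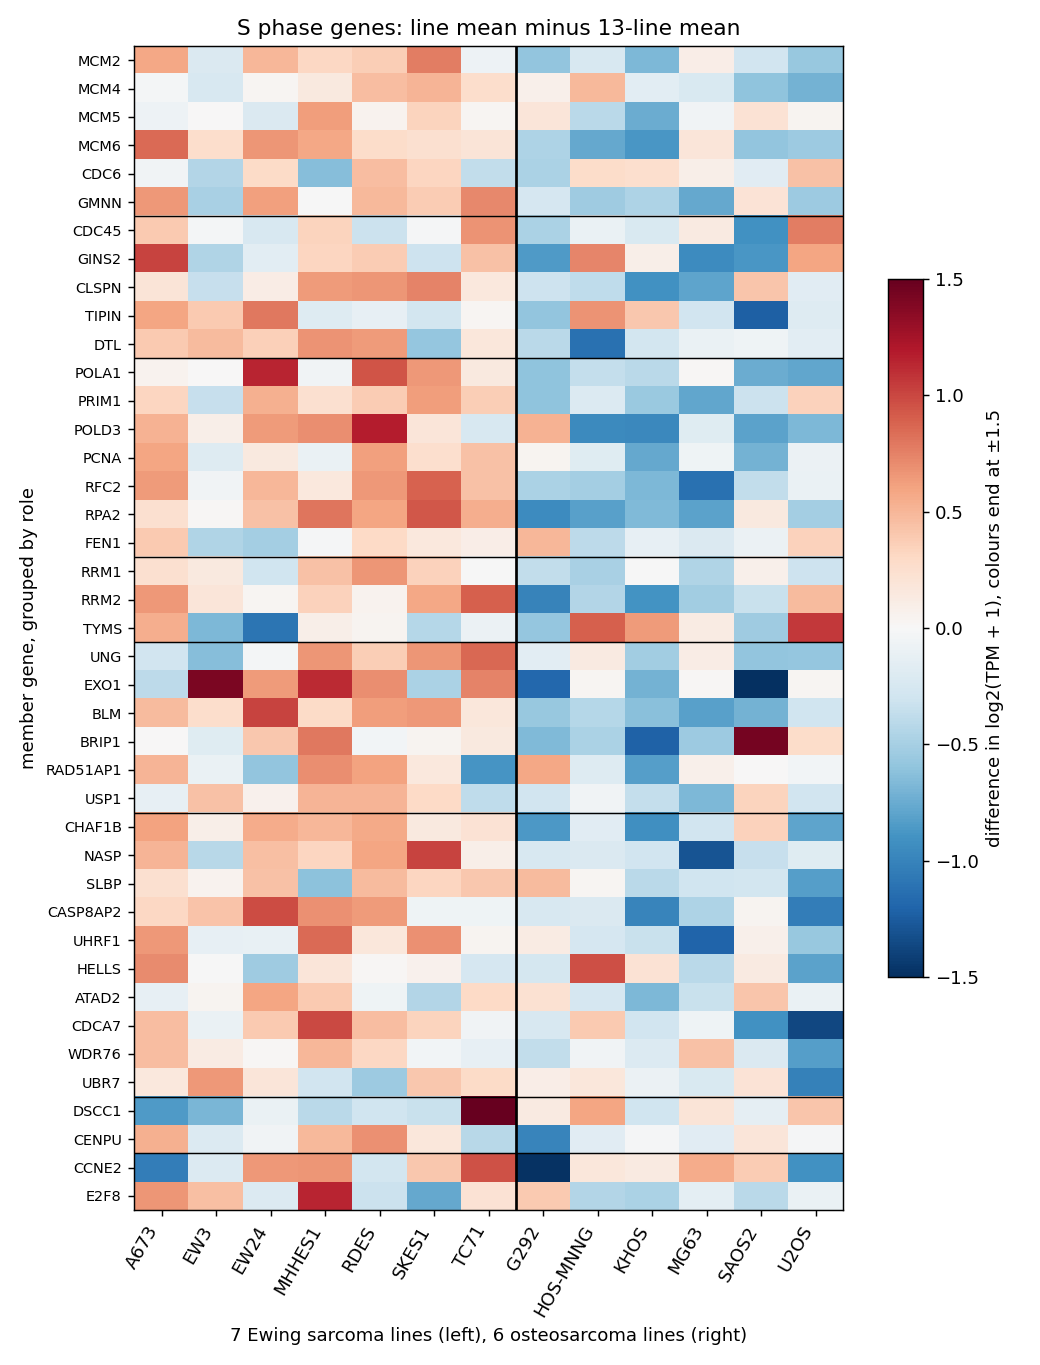
Heat map of the 41 S phase genes (rows, grouped by role with black lines) in the 13 lines (columns, Ewing sarcoma left of the thick line, osteosarcoma right). Colour gives the line's mean log2(TPM + 1) minus the gene's 13-line mean, red higher and blue lower; the Ewing columns hold more red, with single exceptions such as blue TYMS in EW24 and red BRIP1 in SAOS2.

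Of the 6 licensing genes, which load and form the MCM helicase, MCM6 was the 1 called by edgeR with all lines included. MCM2 was called as well by DESeq2 (adjusted p = 0.044), and MCM2 and GMNN by edgeR without EW3. MCM6, a subunit of the helicase ring, ranged over the Ewing lines from 117 TPM (TC71) through a median of 123 to 183 TPM (A673), and over the osteosarcoma lines from 54.8 TPM (KHOS) through 67.7 to 115 TPM (MG63). The groups did not overlap, and MG63 came within a few TPM of the lowest Ewing lines. The fitted difference was 1.79-fold (log2 0.84, SE 0.23, adjusted p = 0.025 by edgeR, 7 against 6 lines). That call was lost without HOS-MNNG (adjusted p = 0.052), without KHOS (0.051), without SAOS2 (0.0504) and with HOS-MNNG and KHOS counted as 1 line (0.051).

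The 250 bases before the RefSeq start of MCM6 are shown because MCM6 was the called licensing gene and its window was the richest in E2F-type letters. The letters searched were TTTCCCGC, TTTCGCGC, TTTGCCGC and TTTGGCGC on both strands, and capitals mark their matches. The window lies at chr2:135876444-135876693 on the minus strand of GRCh38.p14, and is written 5′ to 3′ on that strand.
MCM6: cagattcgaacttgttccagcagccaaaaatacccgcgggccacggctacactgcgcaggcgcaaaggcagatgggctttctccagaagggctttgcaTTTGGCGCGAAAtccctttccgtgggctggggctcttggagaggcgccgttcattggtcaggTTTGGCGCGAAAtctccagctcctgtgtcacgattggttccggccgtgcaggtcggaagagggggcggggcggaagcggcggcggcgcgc
It holds 2 copies of TTTGGCGCGAAA, in each of which TTTGGCGC overlaps a reverse complement of TTTCGCGC, giving 4 matches. It was the 1 window with 4 or more matches among 35116 windows of the table. At least 1 match stood before 928 of 27305 genes (3.4%) and before 15 of the 32 members with an entry: DTL, MCM6, CDCA7, CENPU, GMNN, CASP8AP2, HELLS, UNG, UBR7, TIPIN, GINS2, TYMS, UHRF1, PCNA and POLA1. A match is a run of letters and not a measured binding site. The windows of BLM and RFC2 held none of these letters, and RPA2 was among 9 members without an entry.

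The other licensing genes did not pass edgeR's test with all lines included. MCM2 stood at 142 to 272 TPM in the Ewing lines (median 206) and at 99.5 to 170 TPM in the osteosarcoma lines (median 119), with a log2 difference of 0.59 (SE 0.23, adjusted p = 0.099 by edgeR). MCM4 ran from 143 TPM in U2OS to 335 TPM in SKES1, with a log2 difference of 0.17. MCM5 had medians of 122 TPM in the Ewing lines (range 101 to 181) and 117 TPM in the osteosarcoma lines (range 69.7 to 137), with a log2 difference of 0.13 (SE 0.17). The MCM subunits therefore did not keep a fixed ratio across lines: the ratio of MCM6 to MCM5, both in TPM, had a median of 1.005 over the Ewing lines and 0.619 over the osteosarcoma lines, with overlap, since MG63 (1.013) lay above SKES1 (0.806). GMNN, the inhibitor of relicensing, ranged from 74.1 through 144 to 170 TPM in the Ewing lines and from 59.4 through 72.0 to 117 TPM in the osteosarcoma lines. EW3 was the low Ewing line for GMNN, and without EW3 the member was called (log2 0.82, adjusted p = 0.039), against 0.69 and 0.109 with it. CDC6, the loader, leaned the other way at 31.7 through 48.3 to 69.2 TPM in the Ewing lines and 36.02 through 56.5 to 68.4 TPM in the osteosarcoma lines (log2 −0.24, SE 0.25, adjusted p = 0.57). The ratio of GMNN to CDC6 had medians of 2.57 and 1.19 over the Ewing and osteosarcoma lines, and the types overlapped, with SAOS2 at 2.66 and G292 at 2.39 above EW3 at 1.93.

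By edgeR none of the 5 genes of helicase activation and the moving fork was called with all lines included, while DTL was called by DESeq2 (adjusted p = 0.038) and by edgeR without SKES1, and CLSPN by edgeR without EW3 (0.048), and their fitted differences were all above 0, from 0.12 to 0.57. CDC45, which completes the active helicase, ranged from 36.3 TPM in SAOS2 to 117 TPM in U2OS, both osteosarcoma lines. GINS2, a GINS subunit, ranged from 19.6 TPM in MG63 to 79.0 TPM in A673. CLSPN (claspin), which relays the replication checkpoint, ranged from 14.8 TPM in KHOS to 49.1 TPM in SKES1. Osteosarcoma lines stood at both ends for CDC45, and an osteosarcoma and an Ewing line stood at the low and high ends for GINS2 and CLSPN. TIPIN, a fork protection factor, ran from 15.4 TPM in SAOS2 to 65.5 TPM in EW24. DTL, the substrate receptor of a ubiquitin ligase that removes CDT1, was higher in 6 of 7 Ewing lines than in the highest osteosarcoma line, at 27.7 through 55.1 to 66.9 TPM against 18.6 through 35.9 to 39.7 TPM, but its log2 difference of 0.57 had an adjusted p of 0.094 by edgeR with all lines included.

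The polymerases, primase, clamp and clamp loader had the largest median difference of the 8 roles, log2 0.83 over 7 genes, with RFC2 and RPA2 called. RFC2, a clamp loader subunit, ranged from 101 TPM (EW3) through 144 to 188 TPM (SKES1) in the Ewing lines and from 46.3 TPM (MG63) through 72.3 to 95.0 TPM (U2OS) in the osteosarcoma lines. The groups did not overlap, and the difference was 1.88-fold (log2 0.91, SE 0.22, adjusted p = 0.014 by edgeR). RPA2, a subunit of the protein that coats single-stranded DNA, ranged from 127 through 181 to 238 TPM in the Ewing lines and from 64.3 through 74.6 to 138 TPM in the osteosarcoma lines. SAOS2 was the high osteosarcoma line and EW3 the 1 Ewing line below it; the difference was 1.99-fold (log2 0.99, SE 0.22, adjusted p = 0.0091). RPA2 and BLM stayed called in all 24 settings tried and RFC2 in 23, losing its call with the line as a random effect (adjusted p = 0.055).

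POLD3, a subunit of polymerase delta, stood at 38.6 through 64.5 to 102 TPM in the Ewing lines and at 22.3 through 26.5 to 64.9 TPM in the osteosarcoma lines. That was close to the threshold but did not pass it (log2 0.84, SE 0.27, adjusted p = 0.053 by edgeR), and POLD3 was called in 7 of the 24 settings. POLA1, the catalytic subunit of polymerase alpha, ranged from 25.96 through 31.01 to 60.4 TPM against 15.3 through 18.8 to 27.1 TPM (log2 0.83, SE 0.27, adjusted p = 0.058), and was called in 6. With the line as a random effect, POLD3 (adjusted p = 0.0016), POLA1 (0.016) and EXO1 (0.0203) were called by limma. The groups overlapped in both genes. PRIM1, the primase subunit that makes RNA primers, had a log2 difference of 0.57 (adjusted p = 0.115 by edgeR), and was called by DESeq2 (adjusted p = 0.049) and by edgeR without EW3 (0.046). DESeq2 called POLD3 and POLA1 as well. PCNA, the sliding clamp, stood at 440 through 571 to 737 TPM in the Ewing lines and 281 through 437 to 497 TPM in the osteosarcoma lines (log2 0.45, SE 0.23, adjusted p = 0.206). FEN1, which trims Okazaki fragments, differed least across lines, from 120 TPM in EW24 to 241 TPM in G292, with a log2 difference of −0.09.

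**Figure D2:**
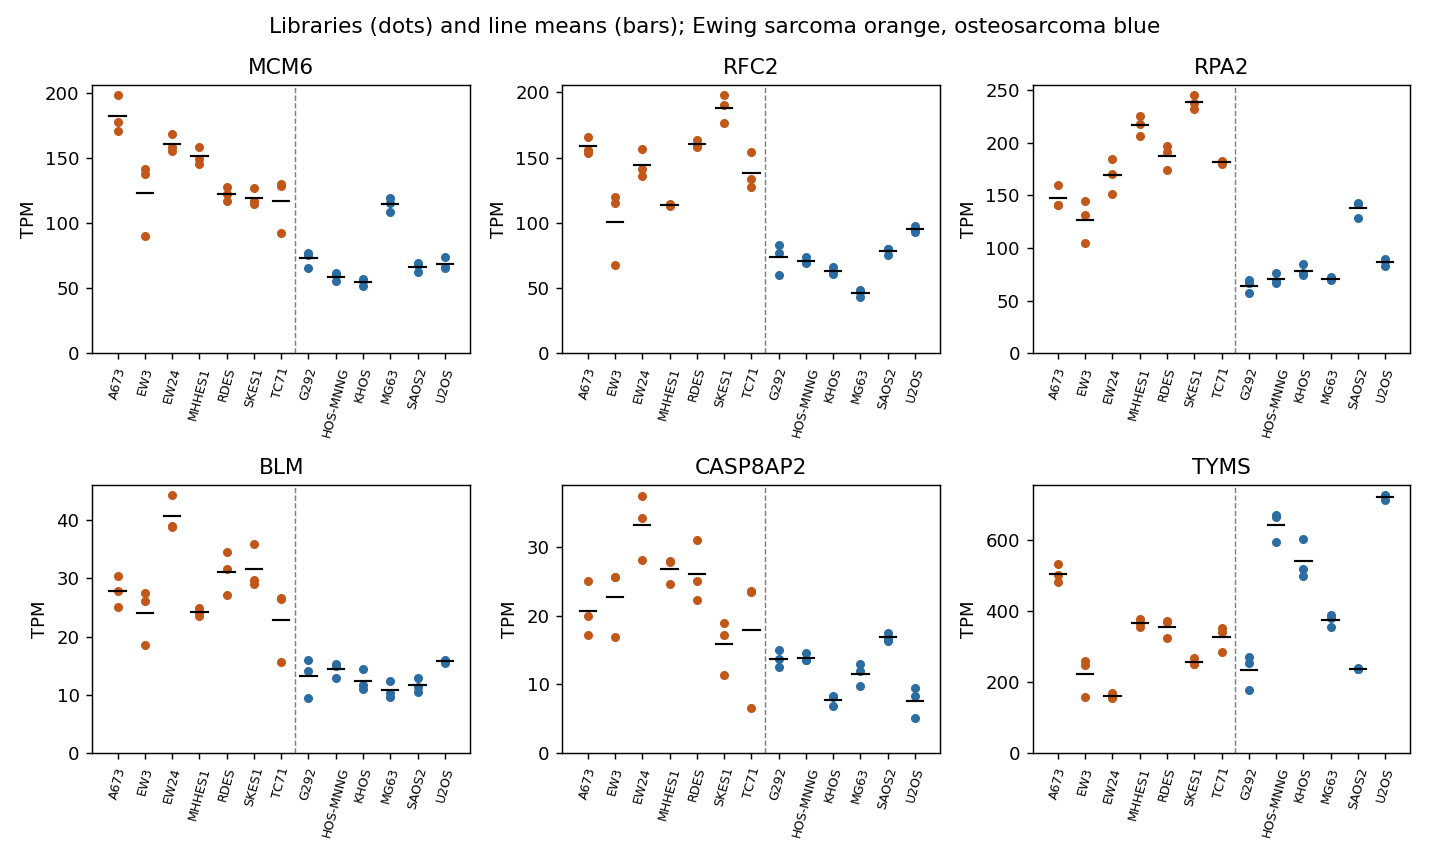
TPM (vertical axes, from 0) of the 5 called members and TYMS in the 13 lines (horizontal axes), with dots for libraries, short bars for line means, Ewing sarcoma in orange and osteosarcoma in blue. MCM6, RFC2 and BLM line means do not overlap between the types, SAOS2 at 138 TPM reaches into the Ewing range for RPA2, and TYMS is highest in U2OS at 720 TPM.

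The 3 nucleotide supply genes did not move as a block. RRM2, the S phase subunit of ribonucleotide reductase, stood at 200 through 250 to 372 TPM in the Ewing lines and at 99.0 through 140 to 271 TPM in the osteosarcoma lines, with U2OS the high osteosarcoma line. Its difference did not pass the test (log2 0.78, SE 0.27, adjusted p = 0.066), and it was called without RDES or without U2OS (0.0497 and 0.037) and by DESeq2 with all lines included (adjusted p = 0.018). RRM1, the large subunit of the same enzyme, ranged from 115 TPM in HOS-MNNG to 257 TPM in RDES (log2 0.35). TYMS, thymidylate synthase, had the opposite sign: 161 through 326 to 504 TPM in the Ewing lines and 233 through 457 to 720 TPM in the osteosarcoma lines (log2 −0.67, SE 0.36, adjusted p = 0.238). The ratio of TYMS to RRM2 had a median of 0.982 over the Ewing lines and 2.70 over the osteosarcoma lines. It reached 5.15 in KHOS and 4.46 in HOS-MNNG, the lines derived from HOS, while SAOS2 at 1.53 was below A673 (1.64) and RDES (1.75), so the types overlapped.

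Of the 6 repair and recombination genes, BLM was called. BLM, the RecQ helicase lost in Bloom syndrome, ranged from 22.9 through 27.8 to 40.7 TPM in the Ewing lines and from 10.8 through 12.8 to 15.8 TPM in the osteosarcoma lines. The lowest Ewing line, TC71, stood above the highest osteosarcoma line, U2OS, and the difference was 1.995-fold (log2 0.997, SE 0.20, adjusted p = 0.0065 by edgeR). EXO1, an exonuclease of mismatch repair and end resection, had the widest span of all members, from 8.52 TPM in SAOS2 to 98.1 TPM in EW3. Its log2 difference between the types was 0.99, but with an SE of 0.39 it did not pass by edgeR (adjusted p = 0.105), while DESeq2 called it (adjusted p = 0.042). BRIP1, a helicase partner of BRCA1, ran from 7.67 TPM in KHOS to 53.4 TPM in SAOS2, so both ends were osteosarcoma lines (log2 0.13). UNG, uracil DNA glycosylase, ranged from 63.5 TPM in SAOS2 to 178 TPM in TC71 (log2 0.45, adjusted p = 0.357). RAD51AP1, a factor of homologous recombination, ranged from 34.98 TPM in KHOS to 102 TPM in MHHES1 (log2 −0.02). USP1, the deubiquitinase that acts on PCNA and FANCD2, ranged from 73.6 TPM in MG63 to 168 TPM in RDES (log2 0.31).

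The 10 chromatin and histone supply genes all had fitted differences above 0 (median log2 0.41), and CASP8AP2 was called. CASP8AP2, also called FLASH, serves the processing of histone mRNA; it ranged from 15.8 through 22.7 to 33.2 TPM in the Ewing lines and from 7.61 through 12.6 to 16.8 TPM in the osteosarcoma lines. SKES1 was the 1 Ewing line below the highest osteosarcoma line, SAOS2. The difference was 1.80-fold (log2 0.85, SE 0.24, adjusted p = 0.030 by edgeR), and it lost its call without EW24 (0.058), without KHOS (0.061) and with the line as a random effect (0.156). Its upstream window is shown for comparison with that of MCM6, with the same search in capitals; it lies at chr6:89829630-89829879 on the plus strand of GRCh38.p14.
CASP8AP2: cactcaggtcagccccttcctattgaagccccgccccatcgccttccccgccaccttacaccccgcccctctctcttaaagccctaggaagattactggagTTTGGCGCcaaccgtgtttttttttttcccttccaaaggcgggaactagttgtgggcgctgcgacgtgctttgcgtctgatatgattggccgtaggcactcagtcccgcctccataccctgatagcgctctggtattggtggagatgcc
It holds 1 match, TTTGGCGC, with no overlap.

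NASP, a chaperone of linker and core histones, stood at 239 through 422 to 628 TPM in the Ewing lines and at 125 through 258 to 273 TPM in the osteosarcoma lines, with 6 of 7 Ewing lines above the highest osteosarcoma line (log2 0.69, adjusted p = 0.068). CHAF1B, a subunit of the assembly factor CAF-1, had medians of 37.8 and 18.3 TPM (log2 0.70, adjusted p = 0.063). Neither passed by edgeR with all libraries included, and DESeq2 called both (adjusted p = 0.018 and 0.017). EdgeR called both without EW3 (0.028 and 0.046) and without replicate 1 of every line, and CHAF1B without SAOS2. UHRF1, which carries DNA methylation over to the new strand, had medians of 136 and 97.6 TPM (log2 0.55). CDCA7, a partner of the remodeller HELLS, ran from 27.9 TPM in U2OS to 146 TPM in MHHES1 (log2 0.55). SLBP, the histone stem loop binding protein, ran from 61.5 TPM in U2OS to 154 TPM in RDES (log2 0.28). HELLS, ATAD2 (a bromodomain ATPase), WDR76 and UBR7 had log2 differences of 0.13, 0.05, 0.23 and 0.15. U2OS was the lowest line for 8 of the 41 members, where it was the lowest for 5.16% of all genes tested. Among these members were HELLS (16.2 TPM), WDR76 (15.8 TPM), UBR7 (25.1 TPM) and CASP8AP2 (7.61 TPM).

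The remaining 4 members belong to cohesion, the centromere and cell cycle control, and none was called by edgeR or DESeq2 with all lines included. DSCC1, a subunit of the alternative clamp loader that serves sister chromatid cohesion, stood at 149 TPM in TC71 (SD 40.8, n = 3 libraries) and at 22.5 to 38.8 TPM in the other 6 Ewing lines, against 33.4 to 63.1 TPM in the osteosarcoma lines. TC71 decided the type comparison: the log2 difference was 0.01 (SE 0.49) with it and −0.79 without it (SE 0.22, adjusted p = 0.036 by edgeR), when DSCC1 was called lower in the Ewing lines. CENPU, a centromere protein, ran from 29.1 TPM in G292 to 94.2 TPM in RDES (log2 0.25). CCNE2, cyclin E2, stood at 14.03 through 40.4 to 68.7 TPM in the Ewing lines and 10.2 through 33.2 to 44.2 TPM in the osteosarcoma lines. Its log2 difference of 0.22 (SE 0.46) turned to −0.08 without TC71. E2F8, a repressor of the E2F family, had the lowest median level over the lines, 9.08 TPM, and ran from 5.65 TPM in SKES1 to 23.6 TPM in MHHES1 (log2 0.37).

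Beyond the members, the neighbouring gene lists were mixed, and their counts stand against 5.96% of all genes called higher, 8.4% called lower and 46.6% with a difference above 0. Of 38 other replication factors, POLE, TICRR and TIMELESS were called higher in the Ewing lines and POLD4 lower (median log2 0.17). Of 14 E2F and G1/S regulators, E2F2, E2F5 and SKP2 were called higher and 0 lower (median log2 0.37). Of 10 other nucleotide supply genes, 0 were called higher and CMPK1 lower (median log2 −0.24). Of 54 genes of G2 and mitosis, 3 were called higher and 1 lower, the median was −0.03 and 26 of the 54 lay above 0.

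Across the 13 lines the members varied about as much as other genes did. The median SD of line means was 0.54 on the log2(TPM + 1) scale for the members and 0.52 for all genes tested, and between libraries of a line it was 0.20 and 0.15. The ratio of the highest to the lowest line had a median of 3.34, from 2.01 for FEN1 to 11.5 for EXO1; it was under 3 for 15 members and 5 or more for 6. The members with the largest SD were EXO1, CCNE2, POLD3, DSCC1 and BRIP1, and those with the smallest were FEN1, MCM5 and RRM1. An Ewing line was the highest for 36 of 41 members (45.2% of all genes tested), and an osteosarcoma line was the lowest for 36 (54.9%). KHOS was the lowest line for 10 members and MG63 and U2OS for 8 each. Of all genes tested, 15.6% were lowest in KHOS, 9.69% in MG63 and 5.16% in U2OS.

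Members went up and down together over the lines to differing degrees. The correlation of a member with the mean of the others over 13 lines was above 0.5 for 24 of 41 members. Its points share library depth, normalisation and any difference between the tumour types, and no share of all genes stands beside it. The correlation was highest for BLM (0.87), RPA2 (0.86) and RFC2 (0.86), all called higher in the Ewing lines. It was below 0 for TYMS (−0.28), DSCC1 (−0.19) and CDC6 (−0.11). The median member deviation of a line went with that of the 38 other replication factors (Pearson r = 0.874, Spearman rho = 0.852, n = 13 lines) and less closely in value with that of the 54 genes of G2 and mitosis (r = 0.557, rho = 0.577). These are descriptions across lines and were not tested.

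Each line was then compared with the equally weighted mean of the other 12 lines in 1 edgeR fit over 39 libraries and 23796 genes. Its p-values measure the spread between libraries of a line, so a large share of all genes was called in every line, and the members' counts are to be read against that share. Over 13 lines and 41 members, 352 of 533 comparisons (66.04%) were called, against 57.4% for all genes tested, whose share ran from 51.3% to 67.1% by line. TIPIN was called in 12 lines and USP1 in 4. Median deviations below are on the log2(TPM + 1) scale and relative to the 13-line mean of each gene. The order of the lines depended on that scale: RDES was highest and KHOS lowest on it, and on log2 CPM A673 was highest (0.53) and U2OS lowest (−0.42). Over all genes tested the median deviation was −0.10 in A673, −0.05 in EW24, 0.02 in MHHES1 and 0.07 in RDES. It was −0.05 in SKES1, −0.14 in TC71 and 0.05 in EW3. In the osteosarcoma lines it was −0.18 in KHOS, −0.11 in HOS-MNNG, −0.09 in MG63 and −0.07 in G292. SAOS2 stood at −0.01 and U2OS at 0.06, and the member medians are to be read beside these values. The members named as highest or lowest in a line are those by deviation on log2(TPM + 1), and the log2 differences in brackets are edgeR's, whose order differed in SKES1, HOS-MNNG and MG63.

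In A673, 29 members (70.7%) were called higher and 3 lower, where 29.6% of all genes were called higher and 21.7% lower, and the median member deviation was 0.40. GINS2 led upwards (log2 1.25, SE 0.14; 79.0 TPM, SD 2.49) and CCNE2 downwards (log2 −1.18, SE 0.24; 14.03 TPM, SD 1.21). TC71 also had 29 called higher and had 1 called lower, against 31.2% and 24%, with a median of 0.17 that was 0.42 on log2 CPM. DSCC1 led in TC71 (log2 2.23, SE 0.09) and RAD51AP1, at 35.4 TPM (SD 12.7), was the member called lower (log2 −0.99, SE 0.11). SKES1 had 25 called higher and 7 lower, against 31.3% and 22.4%, with a median of 0.30. NASP had the largest deviation on log2(TPM + 1) there at 628 TPM (log2 0.94, SE 0.08), while RPA2 had the largest difference by edgeR (log2 1.005, SE 0.09), and E2F8 lay lowest at 5.65 TPM (log2 −0.90, SE 0.14). These 3 lines held the largest counts called higher.

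EW24 had 22 members called higher and 5 lower, against 32.2% and 22.1% of all genes, with a median of 0.28. POLA1 stood highest in EW24 at 60.4 TPM (log2 1.28, SE 0.08) and TYMS lowest at 161 TPM (log2 −1.17, SE 0.11). MHHES1 had 20 called higher and 7 lower, against 29.3% and 22.5%, with a median of 0.39 that was 0.26 on log2 CPM. Its extremes were E2F8 at 23.6 TPM (log2 1.10, SE 0.11) and CDC6 at 31.7 TPM (log2 −0.93, SE 0.12). RDES had 16 called higher and 9 lower, against 34.1% and 22.6%, with a median of 0.46 that was 0.18 on log2 CPM. Without replicate 2 of every line, RDES had 9 called higher and 5 lower, against 29.3% and 17% of all genes. POLD3 at 102 TPM (log2 1.08, SE 0.07) and UBR7 at 34.9 TPM (log2 −0.91, SE 0.08) were its extremes.

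EW3 was the exception among the Ewing lines, with 3 members called higher and 19 lower, against 34.7% and 24.9% of all genes, and a median of −0.03. With RLE size factors in place of TMM the counts were 6 and 17, and with replicate 1 of every line left out, EW3's low library among them, they were 7 and 12. The median of EW3 turned to 0.17 with those libraries left out, and was −0.24 on log2 CPM with all libraries. EXO1 was the highest member in EW3 at 98.1 TPM (SD 22.5; log2 1.35, SE 0.10) and DSCC1 the lowest at 25.7 TPM (log2 −0.998, SE 0.12).

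In the osteosarcoma lines, more members were called lower than higher in 5 of 6. U2OS had 7 called higher and 27 lower (65.9%), against 40% and 27.1% of all genes, with a median deviation of −0.20 that was −0.42 on log2 CPM. TYMS was its highest member at 720 TPM (SD 7.40; log2 0.96, SE 0.09), and CDCA7 its lowest at 27.9 TPM (SD 2.76; log2 −1.77, SE 0.13). SAOS2 had 2 called higher and 23 lower, against 34.4% and 27.9%, with a median of −0.22 that was −0.37 on log2 CPM. BRIP1 rose there to 53.4 TPM (SD 8.45; log2 1.37, SE 0.15) and EXO1 fell to 8.52 TPM (SD 0.409; log2 −2.38, SE 0.14), the largest difference of any member in any line. G292 had 6 called higher and 23 lower, against 33.6% and 26.7%, with a median of −0.36 that became −0.22 with replicate 1 of every line left out. RAD51AP1 at 97.8 TPM (SD 28.8; log2 0.75, SE 0.09) and CCNE2 at 10.2 TPM (SD 2.18; log2 −1.66, SE 0.25) were the extremes of G292.

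KHOS had 8 members called higher and 17 lower, against 32.8% and 26.1% of all genes, with a median of −0.41, the lowest of any line on log2(TPM + 1), that was −0.08 on log2 CPM. TYMS led in KHOS at 539 TPM (SD 55.8; log2 1.09, SE 0.09) and BRIP1 was lowest at 7.67 TPM (log2 −1.11, SE 0.19). HOS-MNNG, of the same origin, had 11 called higher and 10 lower, against 33.5% and 23.8%, with a median of −0.21 that was −0.04 on log2 CPM. Without replicate 2 of every line, HOS-MNNG had 9 called higher and 4 lower, against 28.6% and 18.7% of all genes. HELLS had the largest deviation on log2(TPM + 1) in HOS-MNNG at 57.1 TPM (log2 1.04, SE 0.09), while TYMS had the largest difference by edgeR (log2 1.17, SE 0.09), and DTL was lowest at 18.6 TPM (SD 0.183; log2 −1.07, SE 0.13). MG63 had 4 called higher and 19 lower, against 31.2% and 27.1%, with a median of −0.23. CCNE2 at 44.2 TPM (log2 0.77, SE 0.20) and NASP at 125 TPM (SD 6.81; log2 −1.08, SE 0.10) were its extremes on log2(TPM + 1), while UHRF1 (log2 −1.26, SE 0.13) and RFC2 (log2 −1.17, SE 0.13) lay below NASP by edgeR.

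**Figure D3:**
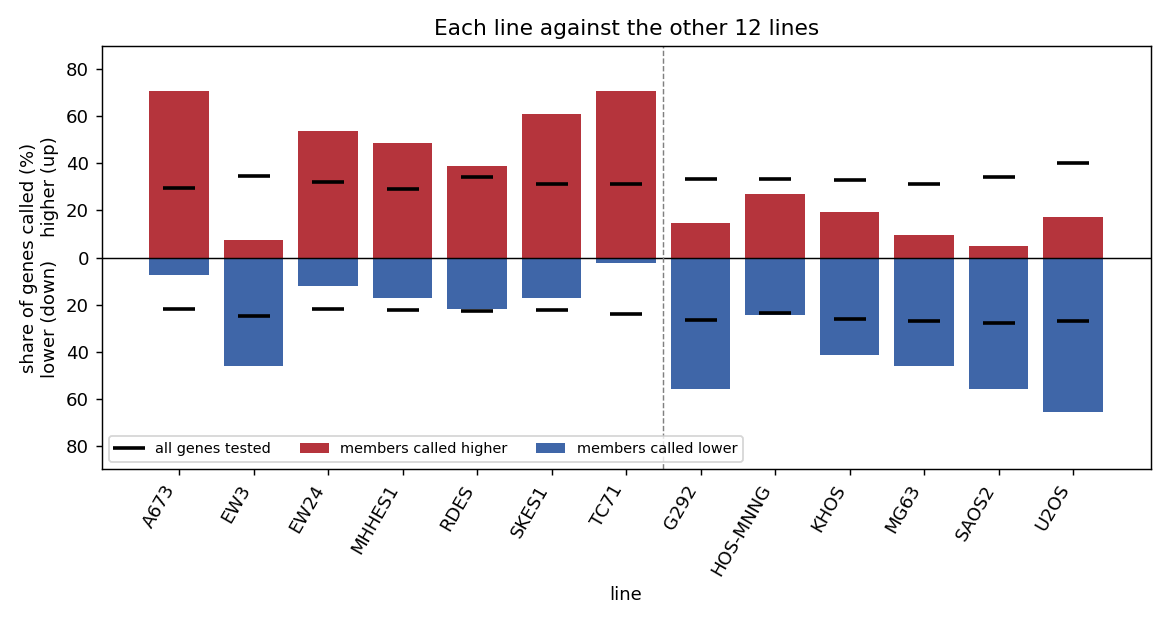
Share of the 41 members called higher (red bars, upwards) or lower (blue bars, downwards) in each line against the other 12 lines, in percent, with black ticks for the share of all 23796 genes tested. A673 and TC71 have the tallest red bars at 70.7%, and U2OS the deepest blue bar at 65.9%, while EW3 sits with the osteosarcoma lines at 46.3% called lower.

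EW3, TC71 and G292 each held a library that lay apart from its line in the S phase genes. EW3 replicate 1 lay 0.42 below its line's mean in the median member, and replicates 2 and 3 lay 0.24 and 0.19 above it. PCNA read 259, 544 and 517 TPM in EW3 replicates 1, 2 and 3. MCM4 read 117, 260 and 256 TPM, and CCNE2 11.3, 37.03 and 39.7 TPM. Replicate 1 was the low library for each. The genes of G2 and mitosis did not share this difference in EW3, with a median of 0.01 in replicate 1, whereas the other replication factors did at −0.33.

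TC71 replicate 3 lay 0.36 below its line's mean in the median member and 0.42 below it in the genes of G2 and mitosis. CCNE2 read 80.5, 101 and 24.8 TPM in TC71 replicates 1, 2 and 3. CASP8AP2 read 23.5, 23.4 and 6.55 TPM, and DSCC1 169, 175 and 102 TPM. With replicate 3 of every line left out, the median member deviation of TC71 was 0.42, against 0.17 with it. G292 replicate 1 lay 0.25 below its line's mean in the median member and 0.34 below it in the genes of G2 and mitosis, and G292 replicate 3 lay above its line's mean in all 41 members. TYMS, for example, read 176, 253 and 271 TPM in G292. The totals of EW3 were 42373210, 27709897 and 26998908 estimated counts, so its low library was its deepest, while TC71 replicate 3, at 25979206, was the shallowest of its line. What set these libraries apart was not tested.

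Between induced and uninduced sh908 libraries edgeR called 0 of 41 members and 0% of the 14252 genes tested. At an unadjusted p under 0.05 stood 0 members, and DESeq2 called 0. With the replicate number as a block, edgeR called 0 members and 0.512% of genes; BRIP1 had the lowest unadjusted p, 0.035, with an adjusted p of 0.332. The fitted log2 differences of the members lay between −0.33 (CCNE2) and 0.13 (PCNA), below 0 in 29 of 41, where 50.4% of all genes tested lay below 0. On simulated counts of this size the unblocked fit recovered 1% of genes changed 2-fold and 47% of those changed 4-fold.

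Within pairs of libraries with the same number, the members leaned down in the first and up in the third. The median member difference, induced minus uninduced on the log2(TPM + 1) scale, was −0.20, −0.07 and 0.11 in pairs 1, 2 and 3, against −0.06, 0.04 and −0.06 for all genes tested. Below 0 were 37, 32 and 16 members, against 60.5%, 42.8% and 59.9% of genes. In all 3 pairs, 12 members were lower (21.3% of genes) and 1 was higher (13.7%). With log2 CPM in place of log2 TPM these counts were 5 and 0, so they depended on the scale.

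The member higher in all 3 pairs was CDC6, at 22.8, 24.1 and 23.4 TPM uninduced and 25.1, 24.4 and 25.4 TPM induced. It was also the 1 member whose groups did not overlap, as was so for 3.65% of genes, and its fitted log2 difference of 0.12 (SE 0.24) did not pass. RRM2 read 199, 188 and 150 TPM uninduced and 169, 173 and 140 TPM induced. CASP8AP2 read 5.995, 6.34 and 21.6 TPM uninduced and 4.46, 5.34 and 20.3 TPM induced. Both were lower in each pair, and their groups overlapped. POLD3 had a mean within-pair difference of −0.19 (SD 0.05, n = 3 pairs), ATAD2 of −0.19 (SD 0.06) and E2F8 of −0.18 (SD 0.14). PCNA changed direction between pairs, at 336, 355 and 265 TPM uninduced and 309, 305 and 479 TPM induced, so that the third pair alone was higher (0.85 on the log2 scale). TYMS read 402, 427 and 377 TPM uninduced and 349, 413 and 410 TPM induced.

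**Figure D4:**
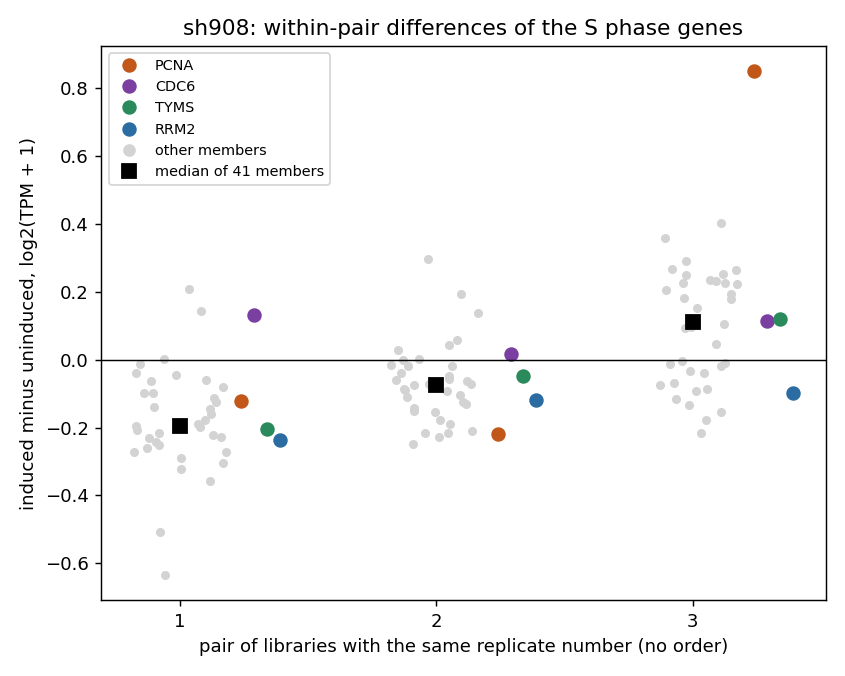
Difference of induced minus uninduced log2(TPM + 1) (vertical axis) for the 41 members in each pair of sh908 libraries with the same replicate number (horizontal axis, no order), with PCNA, CDC6, TYMS and RRM2 in colour, other members in grey and the median as black squares. The medians sit at −0.20, −0.07 and 0.11, and PCNA in pair 3 stands at 0.85.

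Replicate 3 of the sh908 libraries differed from replicates 1 and 2 in both groups. It was above both others, induced and uninduced alike, in 20 members (64.8% of genes) and below both in 10 (15.2%). RAD51AP1 read 30.6, 29.03 and 64.4 TPM uninduced and 26.6, 27.7 and 77.6 TPM induced, and UHRF1 read 43.5, 25.996 and 84.8 TPM uninduced and 36.6, 29.9 and 97.8 TPM induced. RFC2 went the other way at 135, 121 and 84.2 TPM uninduced and 133, 125 and 83.6 TPM induced. Of the other lists, 50 of 54 genes of G2 and mitosis and 24 of 38 other replication factors had fitted differences below 0 with induction, again against 50.4% of all genes. Without the replicate block 0 of either list were called. With it 0 of the genes of G2 and mitosis were called, and 1 replication factor was called higher, POLE3, a histone-fold subunit of polymerase epsilon (log2 0.57, SE 0.10, adjusted p = 0.044 by edgeR), where 0.253% of all genes were called higher. On simulated counts, 45 of the 216 genes that the blocked fit called had not been changed. The medians of the lists without the block were −0.12 and −0.04.

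The uninduced sh908 libraries also lay below the parental A673 libraries, a comparison across separate sets of libraries and with no test here. The mean log2(TPM + 1) was lower for 40 of 41 members and for 73.9% of all genes tested. All 3 uninduced libraries were below all 3 parental ones for 36 members (37.1% of genes) and above them for 0 (8.78%). The median difference was −0.73 on the log2(TPM + 1) scale for the members and −0.32 for all genes tested. PCNA averaged 725 TPM (SD 65.1, n = 3) in parental A673 and 319 TPM (SD 47.6, n = 3) in the uninduced libraries, and UHRF1 189 TPM (SD 4.82) and 51.4 TPM (SD 30.2). GINS2 was the exception with a higher mean, 79.0 TPM (SD 2.49) against 89.2 TPM (SD 14.8). Whether the construct, the culture or the library set moves these values cannot be told apart.

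Some members differed between lines in which of their transcripts led. All 41 members had at least 30 estimated counts in every library; 37 had more than 1 listed transcript, and in 27 of these the same transcript led in every line. In the other 10, ATAD2, BRIP1, CASP8AP2, CCNE2, CLSPN, E2F8, EXO1, HELLS, NASP and RAD51AP1, the leading transcript by mean share differed between lines. In some of them the leader also changed between libraries of 1 line. In U2OS replicates 1, 2 and 3, NM_001137667.2 held 60.6%, 37.6% and 0.00086% of CASP8AP2 TPM. NM_001330490.2 held 49.0%, 50.1% and 27.9% of CLSPN TPM there. A change of leader between lines can thus lie within the spread between libraries. Shares between transcripts that overlap are estimates of kallisto and carry no counting interval here.

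NASP, the histone chaperone, had the widest range of these shares among those described here. Its longer listed transcript, NM_002482.4, made up 75.7% (SD 6.45, n = 3) of NASP TPM in MG63 and 74.5% (SD 2.62) in RDES, 56.6% in EW3 and 44.3% in U2OS. It made up 31.1% in A673, 30.3% in EW24, 29.7% in KHOS and 28.6% in HOS-MNNG. The share was 20.6% in MHHES1, 17.3% in SAOS2, 14.5% in TC71, 14.1% in SKES1 and 12.8% in G292. High and low shares occurred in both tumour types. In the uninduced sh908 libraries the share was 36.2%, 41.9% and 47.9%, and in the induced ones 16.1%, 28.6% and 53.6%.

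ATAD2 differed in TC71 by its transcripts. A predicted RefSeq model, XM_047421725.1, held 45.8%, 43.3% and 55.9% of ATAD2 TPM in TC71 replicates 1, 2 and 3 and at most 4.78% on average in any other line (G292). The gene's total in TC71, 164 TPM (SD 61.3), lay within the range of the other lines, 78.2 to 190 TPM. RAD51AP1 had a short predicted model, XM_047428099.1, at 37.6% (SD 11.4) in A673 and 37.9% (SD 1.28) in TC71 and at 0.623% in U2OS. HELLS transcript NM_018063.5 held 17.7% (SD 7.01) in RDES and 53.1% (SD 9.78) in MG63.

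UNG is made as a nuclear and a mitochondrial enzyme from separate starts, NM_080911 for the nuclear form and NM_003362 for the mitochondrial one. The nuclear transcript led in every line. The mitochondrial one ranged from 6.37% of UNG TPM in HOS-MNNG to 37.5% (SD 3.36, n = 3) in EW3. The bases before both starts are shown, since the choice between them is what the shares measure, with the same E2F-type letters in capitals. The first lies at chr12:109097347-109097573 and the second at chr12:109097922-109098117, both on the plus strand of GRCh38.p14, and the second falls inside the first intron of the nuclear transcript.
UNG NM_080911: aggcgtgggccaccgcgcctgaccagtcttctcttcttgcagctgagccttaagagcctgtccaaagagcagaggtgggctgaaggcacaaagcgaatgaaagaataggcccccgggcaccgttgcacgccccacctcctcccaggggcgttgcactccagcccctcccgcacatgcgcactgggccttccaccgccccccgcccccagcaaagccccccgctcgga
UNG NM_003362: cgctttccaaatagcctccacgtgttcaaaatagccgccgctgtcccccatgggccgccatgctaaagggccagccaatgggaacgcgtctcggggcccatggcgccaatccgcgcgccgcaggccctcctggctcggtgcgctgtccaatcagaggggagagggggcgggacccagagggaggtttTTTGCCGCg
The first window, of 227 bases, held 0 matches and the second, of 196 bases, held 1, TTTGCCGC.

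**Figure D5:**
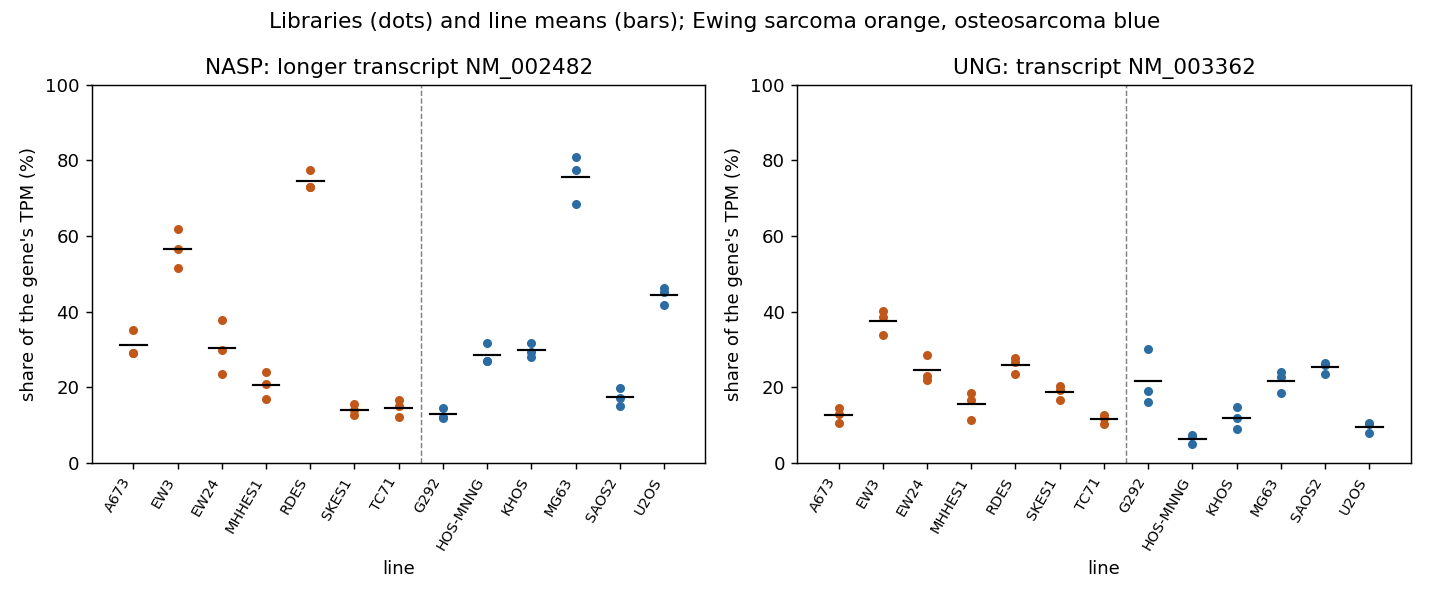
Share of the gene's TPM, in percent, held by NASP transcript NM_002482 (left) and UNG transcript NM_003362 (right) in the 13 lines, with dots for libraries, short bars for line means, Ewing sarcoma in orange and osteosarcoma in blue. NASP runs from 12.8% in G292 to 75.7% in MG63, and UNG from 6.37% in HOS-MNNG to 37.5% in EW3, with both tumour types across most of each range.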

How the data were processed

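PolyA RNA was made into stranded libraries, per the labels' protocols. Reads were trimmed with fastp 0.19.5 and quantified with kallisto 0.46.2 against hg38, per the submitters' processing notes. The authors deposited, for each transcript, estimated counts (expected counts that need not be whole), TPM and effective lengths, per the file headers; each of the 45 tables lists 177816 transcripts. Transcript identifiers were joined to RefSeq gene symbols for 95.6% of transcripts, and between 0.915% and 1.6% of a library's counts had no gene and were left out. The members and lists were chosen with earlier results of these data known.

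TPM and estimated counts were summed per gene. Count sums, rounded to whole numbers, were tested with edgeR 4.0.16 (quasi-likelihood test, TMM, filterByExpr, Benjamini-Hochberg adjustment over all genes of a fit, threshold 0.05) in R 4.3.3, with DESeq2 1.42.0 and limma 3.58.1 as alternatives; descriptions used log2(TPM + 1) in Python 3.11.15. The tumour types were compared over line sums, each line over its libraries and sh908 over its libraries. An SE is the log2 difference divided by the square root of the test's F. Effective lengths entered only an offset used as an alternative. Promoter windows were the 250 bases before each RefSeq start (GRCh38.p14), and matches over all genes were counted in these. Of the windows printed, those of UNG alone were cut, before the start of the nearest UNG transcript in the GENCODE annotation.

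All members are described. In full stand MCM5, PCNA, RRM2, TYMS, CDC6, GMNN and CCNE2, members called or not overlapping between types, those at the extremes of SD, of correlation and of each line, and the 5 with the largest sh908 difference of 1 sign in all pairs. Correlations of same-numbered sh908 libraries in their deviations from the group means were 0.682, 0.581 and 0.881, so the numbers were used as pairs. Uninduced replicate 1 with induced replicate 2 reached 0.607, and uninduced 2 with induced 1 reached 0.516, so the correlations set replicate 3 apart but do not tell 1 from 2; the labels do not say what a number marks. Counts were also simulated with 200 genes changed. Of genes changed 2-fold and 4-fold, the comparison of types over 22000 genes recovered 5% and 36%, and the comparison of a line over 23796 genes 58% and 82%. The sh908 fit over 14252 genes recovered 1% and 47%, and with the block 81% and 90%, but 45 of the 216 genes called with the block had not been changed.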

Additional observations from a re-analysis of the deposited data

Results flagged for a closer look

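Within a tumour type, 1 line stood far from the others for 9 of the 82 combinations of a member and a type, by Dixon's test on line means at the 95% level, where chance flags about 1 in 20 groups. In the osteosarcoma lines, MCM6 was high in MG63 at 115 TPM (next line 73.1), and RPA2 was high in SAOS2 at 138 TPM (next 86.7). RRM2 was high in U2OS at 271 TPM (next 154), and BRIP1 was high in SAOS2 at 53.4 TPM (next 24.1). E2F8 was high in G292 at 13.7 TPM (next 9.46). NASP was low in MG63 at 125 TPM (next 244). In the Ewing lines, DSCC1 was high in TC71 at 149 TPM (next 38.8), in all 3 libraries (169, 175 and 102 TPM). CDCA7 was high in MHHES1 at 146 TPM (next 102), and SLBP was low in MHHES1 at 71.7 TPM (next 120). What sets these lines apart was not tested.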

How the results depend on the processing

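Over 12 members recomputed between types and 5 in sh908, 331 values kept their direction and side of the threshold under an alternative, 9 lost and 4 gained a call, and 7 changed sign; of other members, POLD3 was called in 7 of 24 settings, POLA1 in 6 and CHAF1B in 4; of the counts and medians, 182 stayed close and 22 moved. Members called between types numbered 14 with DESeq2 and 3 to 13 when 1 line was left out, against 5. Leaving out 1 replicate number in every line gave 14 to 23 called members in RDES and 13 to 22 in HOS-MNNG, lowest without replicate 2 in both, against 25 and 21. Between types, CCNE2 ranged from −0.078 (without TC71) to 0.40 (without MG63) when 1 line was left out. Without 1 sh908 library, CASP8AP2 ran from −0.85 to 0.39 and RRM2 from −0.38 to 0.10. On log2 CPM, 5 members were lower and 0 higher in all 3 pairs, and line medians were 0.53 (A673), 0.32 (EW24), 0.26 (MHHES1), 0.18 (RDES), −0.037 (HOS-MNNG), −0.078 (KHOS), −0.37 (SAOS2) and −0.42 (U2OS). Leaving out 1 number likewise put medians at 0.23 to 0.37 in EW24, 0.39 to 0.42 in MHHES1, 0.41 to 0.44 in RDES and 0.18 to 0.35 in SKES1. With the replicate block, 0 members were called in sh908; between types, the block with the line as a random effect called 7 higher and the random effect alone 6, where these fits called 10.6% and 10.5% of all genes higher, against 5.96% in the edgeR fit; the lines' counts stayed within 1.5 times. The cause was not tested. Depth was not compared with the number of lines as a limit.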

Other observations

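HOS-MNNG and KHOS, both derived from HOS, were set side by side by library, without a test of their own. All 3 HOS-MNNG libraries lay above all 3 KHOS libraries in TPM for 24 of 41 members (58.5%), where 32.3% of all genes did, and below them for 3 (7.32%), where 17.7% did; the other 14 members overlapped. These counts are in TPM, and the member medians of HOS-MNNG and KHOS given above lay much closer together on log2 CPM than on log2(TPM + 1). The size of this lean therefore depended on the scale. The members named next were chosen after their values were seen. DSCC1 averaged 63.1 TPM (SD 5.48, n = 3 libraries) in HOS-MNNG and 33.4 TPM (SD 1.98) in KHOS. CHAF1B averaged 23.5 TPM (SD 0.109) and 13.5 TPM (SD 0.994). HELLS averaged 57.1 TPM (SD 4.46) and 33.7 TPM (SD 3.29). DTL went the other way, at 18.6 TPM (SD 0.183) and 34.3 TPM (SD 2.85), and CDC6 was close at 60.9 TPM (SD 1.75) and 59.9 TPM (SD 4.21). The libraries of the lines did not overlap in DSCC1, CHAF1B, HELLS or DTL.

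In the sh908 libraries the mitochondrial UNG transcript held 7.73%, 10.7% and 30.6% of UNG TPM uninduced and 10.7%, 11.8% and 18.9% induced, so replicate 3 was the high library in both groups, while the total of UNG was lowest in replicate 3 in both (55.7 and 55.0 TPM).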
